A study of Rattus norvegicus with 12 samples.

Results

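Integrins and laminins are the receptors and the sheet-forming proteins through which cells hold on to the basement membrane. The genes described here are the rows of the deposited table whose platform symbol is Itga, Itgb, Lama, Lamb or Lamc followed by a digit, or is one of Itgad, Itgae, Itgal, Itgam, Itgav and Itgax. This rule took in 35 of 16592 named genes. They were 16 integrin alpha subunits, 7 integrin beta subunits, 5 laminin alpha chains, 2 laminin beta chains and 2 laminin gamma chains, and 3 proteins named for binding an integrin, Itgb1bp1, Itgb1bp2 and Itgb3bp, which are not subunits. Itgae, which the rule lists, and Itga8, Itgb3 and Lamb2 were not analysed here.

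The arrays measured RNA in whole liver of 6 PCK rats and 6 Sprague Dawley controls, each a separate male animal aged 10 weeks on a standard diet. The labels give the strain of the PCK rats as Crj:CD/SD, a Sprague Dawley stock obtained by cesarean derivation at Charles River Japan, and their disease state as PCK. PCK rats carry a mutation of Pkhd1 and develop cysts in bile ducts and kidneys. The controls are a Sprague Dawley stock named without that derivation, so strain background and disease cannot be told apart. Values are log2 signals, 1 probe set for each gene, and all arrays share 1 distribution of values. The median of the whole table is 5.66, and without detection calls a signal near or below it could not be told from background, so the differences of such genes are not exact in size. The tissue label held: the mean log2 signal of 9 hepatocyte markers lay between 12.97 and 13.02 in PCK livers and between 13.04 and 13.13 in control livers.

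An integrin is a pair of 1 alpha and 1 beta subunit, and the pair decides the ligand. Itgb1 is the shared beta subunit of most receptors for collagen, laminin and fibronectin, Itgb2 is the beta subunit of leukocyte integrins, and Itgav pairs with several beta subunits into receptors that bind the RGD motif of vitronectin, fibronectin and latent TGF-beta. A laminin is a trimer of 1 alpha, 1 beta and 1 gamma chain. In the liver, bile ducts and vessels have a laminin-rich basement membrane, whereas hepatocytes along the sinusoids lack a continuous one.

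Integrin and laminin genes were mostly higher in PCK livers where they differed. The laminin gamma chain Lamc1 rose by 1.19 on the log2 scale, the beta subunits Itgb1, Itgb2 and Itgb6 by 0.75, 0.67 and 0.60, and Itgav by 0.59. Itga7, Itga2b, Itga1 and Itgad fell, by 0.34 or less. In whole liver, more cells of a type and more RNA per cell cannot be told apart. With limma and Benjamini-Hochberg adjustment over all named genes, at an adjusted p under 0.05, 17 of 35 genes rose and 4 fell. Over all 16592 genes 38.3% were called, 17.4% higher and 21.0% lower, against 60.0%, 48.6% and 11.4% of the 35. Among all genes 6.06% were called with a difference of 0.5 or more in size, against 5 of the 35. The median difference was 0.067 over the 35 genes and -0.0067 over all genes. In 16 of the 35 the 2 groups did not overlap, 13 with PCK above and 3 with PCK below, where 21.6% of all genes did not overlap, 11.0% with PCK above and 10.6% with PCK below.

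The share depends on signal. Of the 35 genes 14 had both group means below the table median, and 8 of these were called, all by less than 0.2 on the log2 scale. Among the 16 members above the median of gene means 10 were called, 7 higher and 3 lower, or 62.5%, against 55.5% of all 8295 genes above it, so the total share of calls among the brighter genes was near the background. Of those 8295 genes 24.5% were higher, against 7 of the 16 members. When a difference of at least 1.2-fold was tested with limma's treat, 5 of the 35 genes remained called, Lamc1, Itgb1, Itgav, Itgb6 and Itga3, all higher in PCK livers, where 5.72% of all genes were called and 3.13% were higher.

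**Figure D1:**
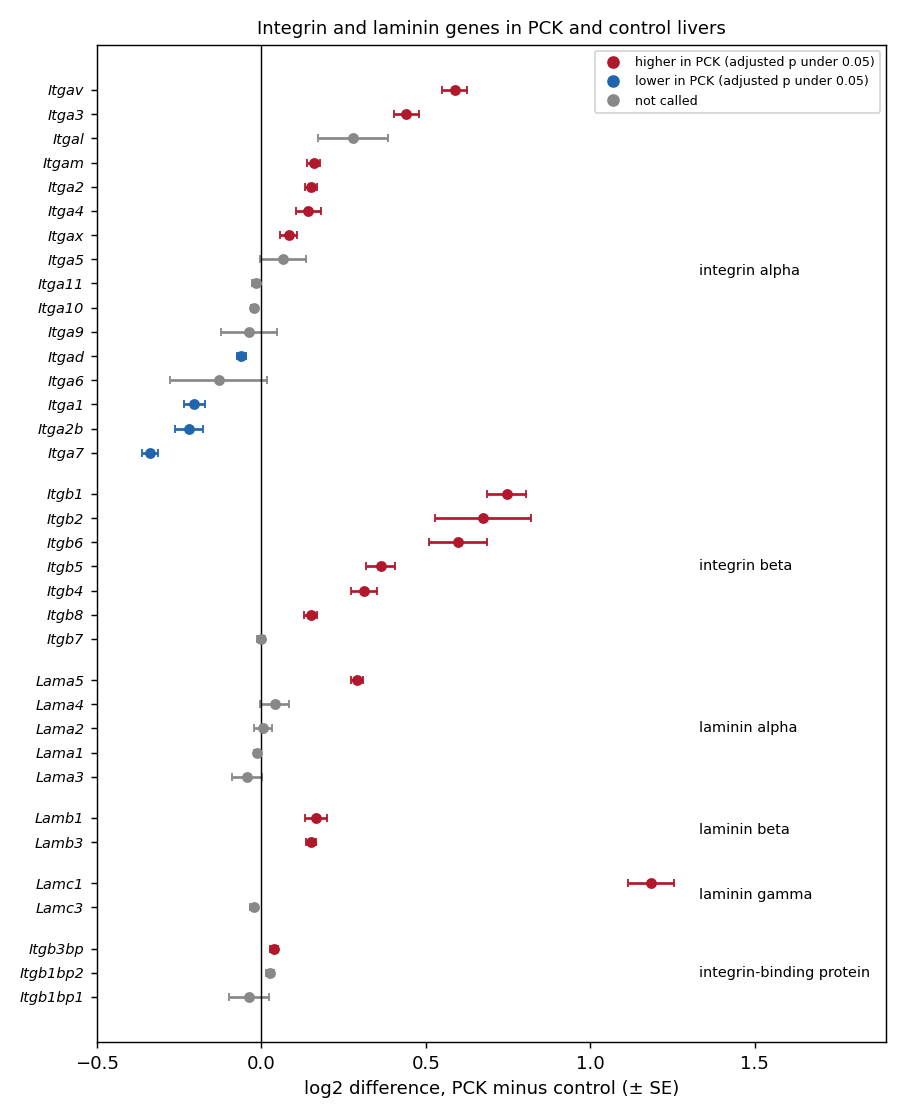
Log2 difference between PCK and control livers (PCK minus control, horizontal axis) for the 35 genes, grouped by class, as the limma estimate with its SE, 6 livers in each group. Lamc1 lies farthest to the right at 1.19, 6 of 7 beta subunits lie to the right of 0, and the alpha subunits lie on both sides, from 0.59 for Itgav to -0.34 for Itga7.

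Lamc1, the gamma chain of most laminins, had 8.42, 8.34, 8.43, 8.41, 8.46 and 8.80 (log2) in PCK livers 1 to 6, against 7.32, 7.28, 7.25, 7.27, 7.43 and 7.21 in control livers 1 to 6. Every PCK value lay above every control value, and PCK 6 stood above the other 5 PCK livers. Lamc1 thus differed by 1.19 ± 0.070 (log2, SE) at a limma adjusted p of 5.73e-07, a 2.27-fold higher signal in PCK livers, and by 1.12 without PCK 6. The other measured gamma chain, Lamc3, was near the bottom of the range in both groups, at 5.35 ± 0.014 in PCK and 5.37 ± 0.020 in control livers (SD, n = 6 each), and was not called.

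The chains that assemble with Lamc1 differed by less, but their signals lay near or below the table median of 5.66. Their differences are thus not exact in size. Lamb1, the beta chain of the widely expressed laminins, averaged 5.88 ± 0.080 in PCK and 5.72 ± 0.038 in control livers (SD, n = 6 each; difference 0.17, limma adjusted p = 0.00284), and the groups overlapped, PCK 5 lying among the controls at 5.73. Lama5, the alpha chain of epithelial and vascular basement membranes, averaged 5.75 ± 0.036 in PCK and 5.46 ± 0.028 in control livers (SD, n = 6 each; difference 0.29, adjusted p = 9.27e-07). All 6 PCK values of Lama5 lay above its control values. Lamb3, a chain of the laminin that anchors epithelium in skin, rose by 0.15 (adjusted p = 2.03e-05), with both means below the table median. The other 4 alpha chains were not called. Their differences were 0.04 for Lama4, the chain of vessel walls, 0.0044 for Lama2, the chain of muscle basement membrane, -0.014 for Lama1 and -0.043 for Lama3, the partner of Lamb3. Of the 9 laminin chains 4 were thus called, all higher. This share of 44.4% is near the 38.3% of all genes called in either direction, while 17.4% of all genes were called higher. For Lama4 control 1 had the highest of the 12 values, 5.92, and without that liver Lama4 was called at a difference of 0.081 (limma adjusted p = 0.0308).

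Itgb1 had 10.09, 10.08, 10.23, 9.97, 10.03 and 10.27 (log2) in PCK livers 1 to 6, against 9.41, 9.28, 9.33, 9.37, 9.54 and 9.27 in control livers 1 to 6. The groups did not overlap, with control 5 the highest control and PCK 4 the lowest PCK liver. Itgb1 differed by 0.75 ± 0.059 (log2, SE), or 1.68-fold, at a limma adjusted p of 4.01e-06.

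Itgb1 pairs with most of the alpha subunits measured, and these went in both directions. Among the laminin-binding partners, Itga3 rose, at 5.89 ± 0.076 in PCK and 5.45 ± 0.057 in control livers (SD, n = 6 each; difference 0.44, limma adjusted p = 5.75e-06), Itga7, best known from muscle, fell, and Itga6 was not called. Itga7 had 5.79 to 5.90 (median 5.85) in PCK and 6.11 to 6.24 (median 6.20) in control livers, with no overlap (difference -0.34 ± 0.024, adjusted p = 1.82e-06). Itga6, which also pairs with Itgb4, spread widely among controls. Control 1 and control 2 were both at 7.45 and the other 4 controls at 6.60 to 6.97, while PCK livers were at 6.67 to 7.02, and the difference was -0.13 ± 0.15 (adjusted p = 0.536).

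The collagen-binding partners of Itgb1 were split as well. Itga1 had 9.06 to 9.21 (median 9.08) in PCK and 9.24 to 9.39 (median 9.29) in control livers, without overlap, and fell (difference -0.20 ± 0.032; limma adjusted p = 0.000429). Itga2 rose by 0.15 (adjusted p = 6.01e-05), with both means, 5.57 in PCK and 5.42 in control livers, below the table median. Itga1 and Itga2 lie next to each other in the RefSeq annotation of assembly GRCr8, with 0 protein-coding genes between them. The other collagen receptors, Itga10 and Itga11, had differences of -0.023 and -0.015 near the bottom of the range and were not called, though Itga10 was called lower without control 1 (adjusted p = 0.0249). Itga5, the fibronectin receptor subunit, was at 9.54 to 9.92 in PCK and 9.45 to 9.78 in control livers, with a difference of 0.067 ± 0.070 (adjusted p = 0.501). Itga9, whose integrin binds tenascin and osteopontin, had a difference of -0.036 ± 0.085 (adjusted p = 0.783). Itga4, the subunit that binds Vcam1 on lymphocytes and monocytes, rose by 0.14 (adjusted p = 0.0121) with both means below the table median.

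**Figure D2:**
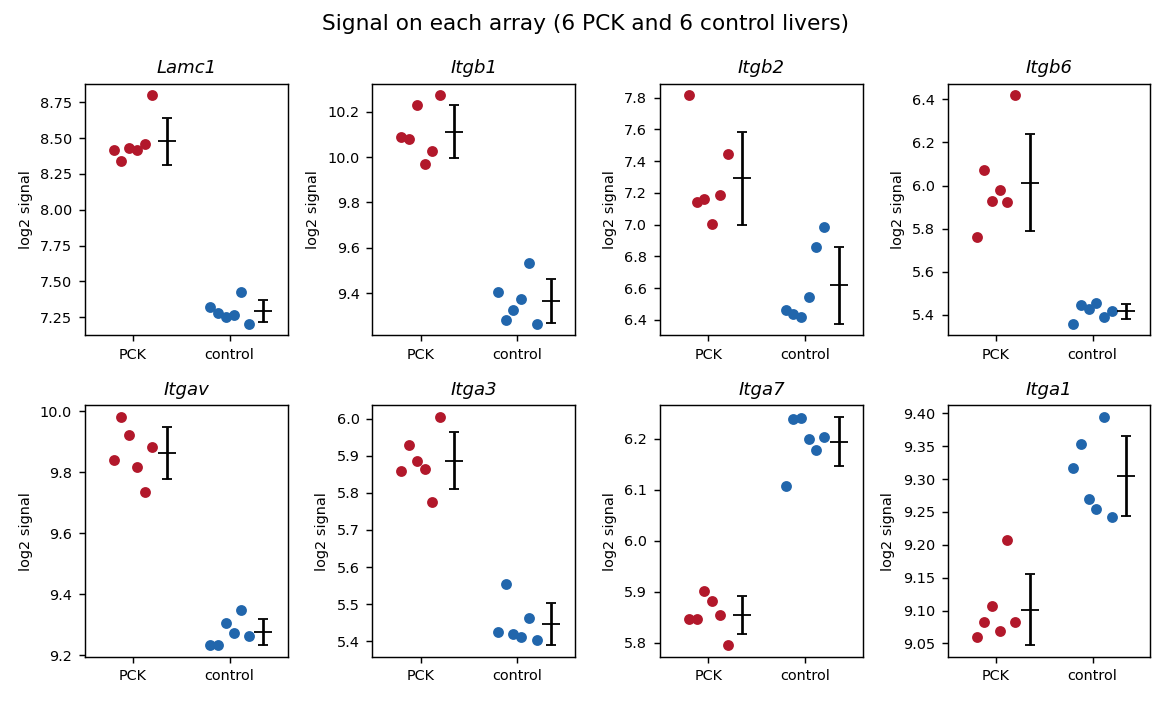
Log2 signal (vertical axis, a separate range for each gene) on each of the 6 PCK and 6 control arrays for 8 genes, with the mean and SD beside the points. PCK values of Lamc1, Itgb1, Itgb2, Itgb6, Itgav and Itga3 lie above all control values, and those of Itga7 and Itga1 below them.

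Itgav had 9.84, 9.98, 9.92, 9.82, 9.74 and 9.88 (log2) in PCK livers 1 to 6, against 9.23, 9.23, 9.30, 9.27, 9.35 and 9.26 in control livers 1 to 6. The lowest PCK liver was above the highest control, and the spread within each group was narrow. Itgav differed by 0.59 ± 0.038 (log2, SE) at a limma adjusted p of 9.81e-07.

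The measured beta partners of Itgav, Itgb1, Itgb5, Itgb6 and Itgb8, each rose. Itgb6, an epithelial subunit whose pair with Itgav activates latent TGF-beta, had 5.76, 6.07, 5.93, 5.98, 5.92 and 6.42 (log2) in PCK livers 1 to 6, against 5.36, 5.44, 5.43, 5.45, 5.39 and 5.42 in control livers 1 to 6. PCK 6 was the highest and PCK 1 the lowest of the PCK livers, and all lay above the controls, which were below the table median. Itgb6 differed by 0.60 ± 0.088 (log2, SE) at a limma adjusted p of 0.000278, and by 0.52 without PCK 6. Itgb5, whose pair with Itgav binds vitronectin, averaged 9.28 ± 0.069 in PCK and 8.92 ± 0.087 in control livers (SD, n = 6 each; difference 0.36, adjusted p = 6.50e-05), without overlap. Itgb8, the other TGF-beta-activating partner, averaged 5.49 in PCK and 5.34 in control livers, both near the bottom of the range, and rose by 0.15 (adjusted p = 0.000118).

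Itgb4 pairs with Itga6 into the laminin receptor of hemidesmosomes. It rose, at 5.87 ± 0.093 in PCK and 5.56 ± 0.034 in control livers (SD, n = 6 each; difference 0.31, limma adjusted p = 8.66e-05), and its groups did not overlap. Its partner Itga6 was not called, nor was Lama3, the partner of Lamb3. Markers of bile duct epithelium were higher in the same PCK livers. Of 12 measured cholangiocyte markers 11 rose, and the other, Slc4a2, was not called. The log2 of their summed signal ran from 11.16 to 11.54 in PCK and from 10.23 to 10.66 in control livers. Krt8, averaging 10.38 in PCK and 9.50 in control livers, had the highest signal of these markers and weighed most in the sum. Krt19, a bile duct keratin, rose by 1.88, while Cftr lay below the table median on every array. The part of these cells in the integrin and laminin values was not tested.

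Itgb2 had 7.82, 7.14, 7.16, 7.01, 7.18 and 7.44 (log2) in PCK livers 1 to 6, against 6.47, 6.44, 6.42, 6.54, 6.86 and 6.98 in control livers 1 to 6. The groups came close, with PCK 4 just above control 6, and PCK 1 and control 6 each led their group. Itgb2 differed by 0.67 ± 0.15 (log2, SE) at a limma adjusted p of 0.00377, with the widest SE among the called members. When a difference of at least 1.2-fold was tested Itgb2 was not called (limma adjusted p = 0.124).

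The alpha partners of Itgb2 mark different leukocytes and differed by less. Itgal, the lymphocyte subunit, was at 6.31 to 6.66 in PCK and 5.82 to 6.43 in control livers, with a difference of 0.28 ± 0.11 that was not called (limma adjusted p = 0.0578). Control 5 and control 6 were its highest controls, at 6.43 and 6.36, and Itgal was called higher without control 5 (adjusted p = 0.0254), without control 6 (0.0418), or without both and PCK 6 (0.0168). With all livers kept, Itgal was also called higher after cyclic loess (adjusted p = 0.0422) and among genes above the median of gene means (0.0319). It was likewise called with a trended and robust variance (0.0378), with array weights (0.0386) and with the replicate block (0.0350). In all, Itgal was called in 8 of 23 alternatives, and with 1 liver left out its limma adjusted p reached 0.119. Itgam, of macrophages and neutrophils, rose by 0.16 (adjusted p = 8.13e-05), with no overlap, and Itgax, of dendritic cells and some macrophages, by 0.083 (adjusted p = 0.0281). Itgax lost its call without PCK 2, PCK 6, control 2, control 3 or control 6, at adjusted p values of 0.0503 to 0.0567. Itgad, a subunit of tissue macrophages, fell by 0.061 (adjusted p = 0.00551). Itgam, Itgax and Itgad had both means below the table median. The 3 genes follow each other in the RefSeq annotation with 0 protein-coding genes between neighbours, and whether their probes separate the paralogs is not known here.

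Macrophage markers were higher in the same livers. Of 12 measured, 9 rose, and Mrc1, Cd163 and Msr1 were not called. The log2 of their summed signal ran from 13.05 to 13.45 in PCK and from 12.05 to 12.69 in control livers, where control 5 was the highest. Lyz2, the macrophage lysozyme, averaged 11.29 in PCK and 8.94 in control livers and rose by 2.35. It had the largest difference of the 12 and weighed most in the difference of these sums. The sums thus do not show how far the other markers separate the groups. Csf1r, a receptor of the lineage, rose by 0.62. Of 11 neutrophil markers 10 lay below the table median on every array, S100a8 and Mpo among them, and of 13 T and NK cell markers 10 did, Cd3e and Cd8a among them. The part of these cells in the Itgb2 values was not tested. Itgb7, the lymphocyte gut-homing subunit, was at 5.42 in both groups and was not called.

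Itga2b, the platelet receptor subunit, had 5.99 to 6.15 (median 6.06) in PCK and 6.17 to 6.41 (median 6.32) in control livers, without overlap, and fell (difference -0.22 ± 0.042; limma adjusted p = 0.00162). Of 7 platelet markers Clec1b, which sinusoidal endothelium also expresses, and Treml1 fell and Pf4 rose, and 5 of the 7 lay below the table median on every array. The log2 of their summed signal was 8.38 to 8.42 in PCK and 8.46 to 8.57 in control livers. Clec1b, at -0.43, had the largest difference of the 7 and weighed most in the difference of these sums. Among 9 endothelial markers 4 fell, Clec4g, Flt1, Tek and Lyve1, with summed log2 signals of 11.51 to 11.79 in PCK and 11.72 to 12.01 in control livers. Of 11 stellate cell and pericyte markers 5 rose and 5 fell. Of 5 smooth muscle markers 1 fell, and 3 lay below the table median on every array. Their part in the falls of Itga1, Itga2b and Itga7 was not tested.

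The 3 integrin-binding proteins moved little. Itgb3bp, a centromere protein first found by its binding to an integrin tail, rose by 0.038 (limma adjusted p = 0.0249) at 5.27 in PCK and 5.23 in control livers, with overlapping groups, and lost this call without PCK 6, control 3 or control 6, at adjusted p values of 0.0515 to 0.0539, and at 0.183 without PCK 6, control 5 and control 6. Itgb1bp1, a regulator of Itgb1 activation, and Itgb1bp2, a muscle protein, had differences of -0.037 and 0.026 and were not called, though Itgb1bp2 was called higher without PCK 1 (adjusted p = 0.0279).

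**Figure D3:**
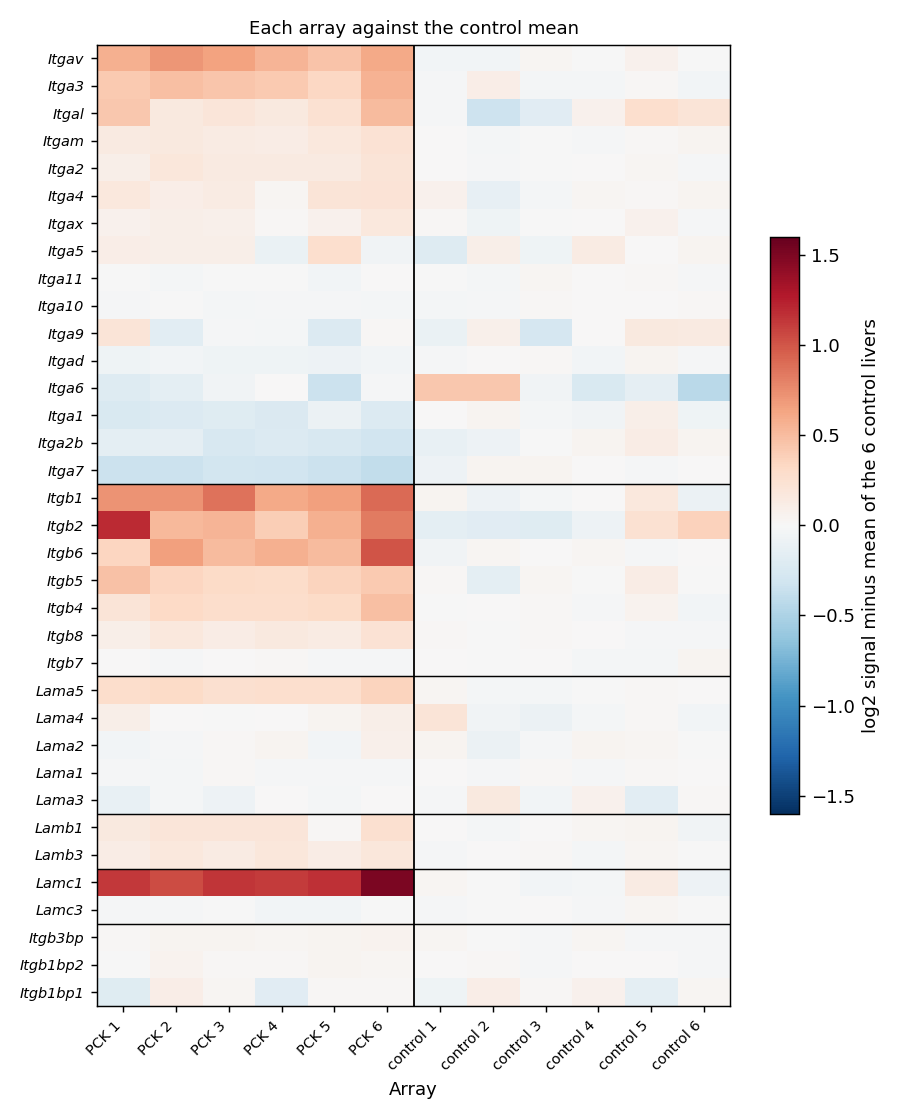
Log2 signal of each of the 35 genes on each array minus the mean of the 6 control livers (colour scale), with the PCK arrays to the left of the control arrays and lines between gene classes. Lamc1, Itgb1, Itgb2, Itgb6 and Itgav are red on all 6 PCK arrays, most often deepest on PCK 6, and Itga7 is blue on all 6.

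The PCK livers did not differ alike from control. PCK 6 had the highest of the 6 PCK values in 14 of the 17 genes called higher, or 82.4%, where it was the highest in 35.6% of the 2882 genes called higher over the whole table. The exceptions were Itgb2 and Itgb5, led by PCK 1, and Itgav, led by PCK 2. Among PCK livers PCK 6 also had the highest summed signal of 7 of the 14 marker lists. These were the lists of cholangiocytes, macrophages, mesothelium, stellate cells and pericytes, T and NK cells, B cells and dendritic cells. The PCK sums lay close together for T and NK cells (9.13 to 9.17), B cells (8.41 to 8.51) and dendritic cells (8.36 to 8.40). Of 4 mesothelial markers 3 lay below the table median on every array. The part of PCK 6 in the integrin and laminin values was measured by leaving it out. Without PCK 6, 15 members were higher and 4 lower, Itgax and Itgb3bp losing their calls. Without PCK 6, control 5 and control 6 together, 17 were higher and 4 lower, with Itgal gained and Itgb3bp lost.

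Promoter sequence is shown for the genes that rose most, as far as RefSeq's promoter table of GRCr8 holds them, so that the genes that rose together can be compared at their starts. The table matched 29 of the 35 genes by symbol, and Itgb2 was not among them. Each line gives the 250 bases before the annotated start, 5′ to 3′ on the gene's strand. Lamc1 is at chr13:68051987-68052236 (minus strand), Itgb1 at chr19:73602027-73602276 (plus strand), Itgav at chr3:89245132-89245381 (plus strand) and Itgb6 at chr3:65530334-65530583 (minus strand). Capitals mark matches, on either strand, to the motifs searched: GGGCGG (GC box), GGAATG (TEAD), CCGGAA (ETS), GAGGAAG (PU.1), TGANTCA (AP-1) and CACGTG (E-box). In Lamc1 the TEAD match overlaps a GC box, and another pair of GC boxes overlap.
Lamc1: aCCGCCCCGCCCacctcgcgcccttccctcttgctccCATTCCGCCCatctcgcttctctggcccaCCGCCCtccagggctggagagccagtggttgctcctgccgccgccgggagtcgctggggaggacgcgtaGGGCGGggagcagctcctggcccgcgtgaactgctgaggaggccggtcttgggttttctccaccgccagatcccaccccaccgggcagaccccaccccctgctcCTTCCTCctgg
Itgb1: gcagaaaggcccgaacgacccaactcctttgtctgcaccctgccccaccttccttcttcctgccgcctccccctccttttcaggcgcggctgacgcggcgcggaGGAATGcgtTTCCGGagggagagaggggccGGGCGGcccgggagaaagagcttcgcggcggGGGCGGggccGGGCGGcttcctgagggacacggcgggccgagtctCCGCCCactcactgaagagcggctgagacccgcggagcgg
Itgav: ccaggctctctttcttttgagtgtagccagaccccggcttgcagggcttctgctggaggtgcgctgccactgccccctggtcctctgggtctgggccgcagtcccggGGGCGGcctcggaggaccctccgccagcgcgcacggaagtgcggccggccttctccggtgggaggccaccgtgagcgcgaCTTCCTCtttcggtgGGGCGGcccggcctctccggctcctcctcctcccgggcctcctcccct
Itgb6: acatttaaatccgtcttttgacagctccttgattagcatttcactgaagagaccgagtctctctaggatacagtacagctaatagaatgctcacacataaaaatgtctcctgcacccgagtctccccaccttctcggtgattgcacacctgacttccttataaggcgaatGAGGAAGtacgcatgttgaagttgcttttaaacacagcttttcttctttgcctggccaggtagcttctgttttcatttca

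The first 3 promoters are rich in G and C, at 71.2% for Lamc1, 71.2% for Itgb1 and 72.0% for Itgav, while that of Itgb6 is at 43.2%, where the median of 33465 promoters is 51.2%. GC boxes were found 5 times for Lamc1, 4 times for Itgb1 and 2 times for Itgav. A TEAD match was found in Lamc1 and Itgb1 and a PU.1 match in Lamc1, Itgav and Itgb6. Over the 29 member promoters a GC box was present in 48.3%, against 30.5% of all promoters, a TEAD match in 20.7% against 12.1%, a PU.1 match in 24.1% against 10.2%, an ETS match in 13.8% against 12.6% and an AP-1 match in 6.90% against 6.34%. The E-box letters were in none of the 29 windows and in 5.59% of all. These are matches of letters and describe the windows alone.

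Genes that act with integrins and laminins were read from 4 lists, each beside the 38.3% of all genes called (17.4% higher, 21.0% lower) and their median of -0.0067. The membrane partners of integrins and other laminin receptors were the list with the highest share: of 18 measured genes 13 rose and 3 fell, Tspan4, Sdc2 and Slc3a2, with a median difference of 0.43. Dag1, which encodes the laminin receptor dystroglycan, averaged 10.76 ± 0.11 in PCK and 9.64 ± 0.11 in control livers (SD, n = 6 each; difference 1.12, limma adjusted p = 3.36e-07). The tetraspanin Cd151, a partner of laminin-binding integrins, rose by 0.96 (adjusted p = 1.25e-06). Another tetraspanin, Cd63, rose by 1.28 (adjusted p = 3.09e-05) and the thrombospondin and fatty acid receptor Cd36 by 1.18 (adjusted p = 0.000148). Rpsa, the ribosomal protein also called the laminin receptor, had a difference of 0.07 and was not called.

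Of 21 basement membrane genes other than laminins 10 rose and 2 fell, with a median of 0.039. Nid1, the nidogen that links the laminin gamma chain to collagen IV, averaged 8.36 ± 0.18 in PCK and 7.48 ± 0.21 in control livers (SD, n = 6 each; difference 0.88, limma adjusted p = 6.31e-05), without overlap. Sparc, a collagen-binding matrix protein, rose by 0.53 (adjusted p = 0.00326). The 2 that fell were Tinagl1 (-0.68, adjusted p = 0.00297) and Smoc1 (-0.58, adjusted p = 4.22e-05), a matrix protein related to Sparc. Nid2 had a difference of 0.0016 and was not called.

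Of 29 integrin ligands other than laminins 12 rose and 3 fell, with a median of 0.072. Icam1, the endothelial and epithelial ligand of Itgb2 integrins, averaged 8.77 ± 0.095 in PCK and 7.51 ± 0.21 in control livers (SD, n = 6 each; difference 1.26, limma adjusted p = 2.07e-06). The matricellular genes Cyr61, now called Ccn1, and Ctgf, now Ccn2, rose by 1.08 (adjusted p = 0.000725) and 1.03 (adjusted p = 3.31e-05), and the groups of Cyr61 overlapped. Mfge8, a ligand of Itgav integrins, rose by 0.77 (adjusted p = 2.43e-05). The 3 that fell, Nov, Icam2 and Vtn, did so by 0.10 or less, and 2 were lower when arrays were centred on the brightest 25% of genes. Fibronectin, Fn1, with a difference of 0.08, and Vcam1, with 0.015, were not called.

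Of 38 cytoplasmic integrin adaptors and kinases 16 rose and 3 fell, Kank1, Sharpin and Tln2, with a median of 0.103. Flna, the actin crosslinker filamin, averaged 7.54 ± 0.28 in PCK and 6.43 ± 0.21 in control livers (SD, n = 6 each; difference 1.11, limma adjusted p = 7.50e-05). Parvb, an adaptor of the complex formed with integrin-linked kinase, rose by 0.75 (adjusted p = 5.43e-05), Rsu1, which binds the same complex, by 0.54 (adjusted p = 3.77e-05) and the docking protein Nedd9 by 0.53 (adjusted p = 0.000393). The kinases Ptk2, at -0.04, and Ilk, at 0.09, were not called. With a difference of at least 1.2-fold tested, 5.72% of all genes were called. In that test 9 of 18 membrane partners, 4 of 29 ligands, 3 of 38 cytoplasmic adaptors and 2 of 21 basement membrane genes remained called.

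**Figure D4:**
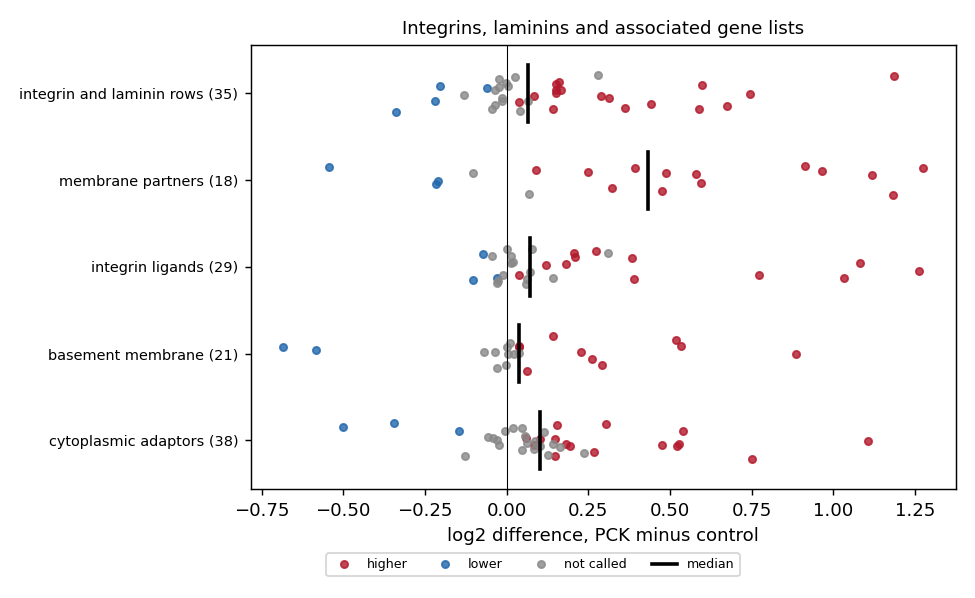
Log2 difference (PCK minus control, horizontal axis) of each measured gene in the 35 integrin and laminin rows and in 4 lists of associated genes, with a bar at the median and the number of genes beside each name. The median is 0.43 for membrane partners and 0.103 or less for the other 4 sets.

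The shares of marker lists called with limma are read beside the 38.3% of all genes. They were 91.7% for cholangiocytes and 90.9% for stellate cells and pericytes, and 9 of 12 macrophage markers were called. Several lists lay near the share of all genes: 45.5% for neutrophils, with 4 higher and 1 lower of 11, and 44.4% each for hepatocytes, where Hnf4a, Cyp2e1, Asgr1 and Serpina1 of 9 fell, and for endothelium. The B cell list, with 2 higher and 1 lower of 7, and the platelet list were each at 42.9%, and the pancreatic list, with 2 lower of 6, was at 33.3%. The dendritic cell list was at 57.1%, with 2 higher and 2 lower of 7, and the mesothelial list at 50.0%, where Msln and Upk3b of 4 rose. Of 5 smooth muscle markers 1 was called, and T and NK cells were at 15.4%, with 1 higher and 1 lower of 13. Of 3 erythroid markers none was called with limma, and 1 had an unadjusted p under 0.05.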

How the data were processed

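Per the labels' protocols, Trizol RNA from frozen livers of 6 PCK and 6 control rats was made into biotinylated cRNA by Affymetrix's method. The authors deposited 1 table of log2 signals for 19239 probe sets, 5.14 to 13.98; the scale was read from this range, and the sources used here give neither array type nor summarisation. The sorted values of all 12 columns are identical, as quantile normalization gives, which removes differences in total RNA. There are no detection calls.

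The platform annotation gave 1 symbol for 16592 probe sets and none for 2647; the latter entered 1 alternative. RefSeq synonyms gave a current symbol for 3302 of all the platform symbols. List genes not found by platform symbol were looked up by this current symbol. The group difference was fitted per gene (lmFit and eBayes of limma 3.58.1, R 4.3.3; 2-sided) and p adjusted over 16592 genes, with no filter on signal. The fit was tested on simulated data with known changes. Figures used matplotlib 3.10.9.

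Members, lists and alternatives were chosen with earlier results of these data known. Called members at 0.5 or more are given for every liver; lists name up to 4 called genes with the largest difference, and others were named after their values were seen. Pathway lists cover membrane partners, basement membrane, ligands and cytoplasmic adaptors. The labels call the livers biological replicates and do not say that replicate numbers pair animals, so the numbers were not used as pairs. Deviations of same-numbered livers correlated at -0.14 to 0.17, with 1 of 6 pairs over 0.1, which cannot decide whether they are pairs.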

Additional observations from a re-analysis of the deposited data

Results flagged for a closer look

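In 70 groups of 6 livers, 1 liver stood apart from the other 5 in 3, by Dixon's ratio of the gap to the group's range past its critical value; chance gives about 1 in 20 groups. Lamc1 was at 8.80 in PCK 6 and at 8.34 to 8.46 in the other PCK livers. Lama1 was at 5.42 in PCK 3 and at 5.38 to 5.39 in the other PCK livers, near the bottom of the range. Itga1 was at 9.21 in PCK 5 and at 9.06 to 9.11 in the other PCK livers.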

How the results depend on the processing

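Lamc1, Itgb1, Itgav, Itgb6 and Itga3 were called higher under every alternative that gave them a value. Members called numbered 21. The count was 10 with genes above the median of gene means, where 16 members remained to be tested. It was 5 with a difference of at least 1.2-fold tested, where all genes called numbered 949, or 5.72%. The lists then had 3 of 38 cytoplasmic adaptors, 2 of 21 basement membrane genes, 4 of 29 ligands and 9 of 18 membrane partners called. Ligands called were 8 at an adjusted p under 0.01. Over the leave-one-out fits members called ranged from 19 to 23 and all genes from 5731 to 6367. Cyclic loess gave 54.1% of calls higher over all genes, against 45.3% as deposited. A centring on the mean of the brightest 25% of genes, chosen after the data were seen, called 21 members. With the replicate block 20 members were called; Itgax (adjusted p = 0.0772) and Itgb3bp (0.104) lost their calls and Itgal gained one (0.0350). Values that were not called changed sign near 0. Itgb7 was at 0.00098 with the brightest 25% centred and 0.0046 with cyclic loess, Itga9 at 0.0039 and Itgb1bp1 at 0.0048 with cyclic loess. Without control 5, control 6 and PCK 6, Lama2 was at -0.0047, Itgb7 at 0.0071 and Itga9 at 0.027. Left-out single livers put Lama2 at -0.013 to 0.015 and Itgb7 at -0.0058 to 0.0082. The cause was not tested. No detection calls limit the members below the table median.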
